A study of Schizosaccharomyces pombe with 24 samples.

Results

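The genes described here are 7 genes of phosphate acquisition in *Schizosaccharomyces pombe* (fission yeast), 7 of the 5195 genes counted in the series: *pho84*, *pho1*, *tgp1*, *pho7*, *csk1*, *asp1* and *aps1*. They were chosen by symbol as the phosphate (PHO) regulon and its regulators, and all 7 were found and passed the filter on low counts in every comparison. The lower *pho84* counts of *htb1-G52D* against WT were part of that choice. The values of all 7 genes in that comparison are therefore a description with no test. The other comparisons with WT share its 3 libraries, and each was tested. Comparisons with *htb1-E34K* share no library with the choice, but they too were set with earlier results of these data known.

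The study asked what mutations of histone H2B found in human tumours do in fission yeast, where *htb1* is the gene for H2B. Poly(A) RNA, taken with oligo(dT) beads, was sequenced from 8 genotypes with 3 libraries apiece, 24 in all. The study's methods name 30 °C as the growth temperature unless noted, and the labels name no treatment or age of the cultures. The study lists WT as *h+ ade6-M216 leu1-32 ura4-D18*. It lists *htb1-D67N*, *htb1-E34K*, *htb1-E112K* and *htb1-E75Q* as *h+ ade6-M210 leu1-32 ura4-D18*, each with the kanMX6 drug marker at the mutated *htb1*. The strains of *htb1-G52D* and *htb1-P102L* are listed as *h-* with *leu1-32* and *ura4-D18*, with an uncertain *ade6* allele and with no marker at *htb1*. The last genotype is labelled a deletion of *set1*, the H3K4 methyltransferase gene, in the titles and a knockdown in the genotype field. The study names different strains for it in different places. The listed strain is *h+ leu1-32 ura4-D18*, with kanMX6 at the deleted *set1* and no *ade6* allele named. The other is not in the study's strain list. WT thus differs from the H2B mutants in markers as well as in the H2B residue. It also differs in markers from the listed *set1* strain. *htb1-P102L* likewise differs from *htb1-E34K* in mating type and in the marker at *htb1*. Such differences and the mutations cannot be told apart.

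Fission yeast takes up inorganic phosphate through the membrane transporter Pho84, frees phosphate outside the cell with the acid phosphatase Pho1, and imports glycerophosphocholine through Tgp1. The factor Pho7 activates all of these genes when phosphate is scarce. When phosphate is plentiful, each gene is kept low by transcription of a long noncoding RNA that starts upstream and runs across the promoter: *prt2* before *pho84*, *prt* before *pho1* and *nc-tgp1* before *tgp1*. Inositol pyrophosphates, made by the kinase Asp1 and broken down by phosphatases that include Aps1, act on the termination of these noncoding RNAs, and Csk1 is a kinase that activates cyclin-dependent kinases and that affects *pho1* expression.

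The libraries held between 18935513 and 28181070 counts. Levels are given as CPM, the counts of a gene relative to the size of its library, with sizes scaled by TMM factors that ranged from 0.703 to 1.53. A gene was called when the adjusted p of edgeR's quasi-likelihood test was under 0.05 and the change was at least 2-fold. SE is the standard error of the log2 fold change. Libraries of a genotype are separate samples by label, so p-values measure the spread between such samples. The *set1* counts went against the label: 20, 20 and 32 in WT against 336, 362 and 412 in the libraries labelled *set1*Δ, so no direction below is tied to a loss of *set1*. Counts of *ura4*, which *ura4-D18* deletes, reached 865 in WT replicate 3, 1382 in *htb1-G52D* replicate 1 and 712 in *htb1-P102L* replicate 1, and at most 2 in the other 21 libraries. The mating-type gene *mat1-Mc* had 103 counts in the same WT replicate and 78 to 238 in replicates 1 and 2 of *htb1-G52D* and *htb1-P102L*, and at most 1 in the remaining libraries, replicate 3 of those mutants included. For the 7 genes and their neighbours, many but not all of the changes that rest on those libraries are also given without the 3 that hold *ura4* counts. The *htb1* transcript itself averaged 6550 CPM in *htb1-E75Q*, 5460 CPM in *htb1-E112K* and 10700 CPM in *htb1-D67N*, beside 797 to 1550 CPM in the other 5 genotypes.

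The counts of *pho1* need a limit of their own. From the ratio of deposited counts to deposited FPKM (fragments per unit of transcript length and of library depth), the length that the authors' tables use for *pho1* is 2681 bases. The gene is 1548 bases long in the ASM294v3 annotation, and the stretch from the start of the noncoding RNA (*nc-pho1*, which is *prt*) to the end of *pho1* is 2695 bases. Over 4760 genes the same ratio of used to annotated length had a median of 1 and a range of 0.797 to 1.32 from the 5th to the 95th percentile. For *pho1* it was 1.73. It was also outside that range for *tgp1*, counted over 1632 of 2102 annotated bases (0.776), and for *csk1*, counted over 921 of 1265 bases (0.728), so the tables hold other gene models for these than the annotation does. A value given for *pho1* may therefore hold reads of *prt*, and the 2 RNAs cannot be told apart in these counts. For *pho84* the used length was 2076 bases and the annotated length 2100 bases. The RNA *prt2* covers 89.0% of *pho84* on the same strand in the annotation, and antisense RNAs cover 89.5% of *pho84*, 64.5% of *tgp1* and all of *csk1*. Use of the strand in counting is not stated, so reads of such partners could be split or shared.

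*pho84*, the phosphate transporter gene, fell in *htb1-E75Q* and rose in the libraries labelled *set1*Δ. In WT its level was 236, 165 and 183 CPM. In *htb1-G52D* it was 25.3, 41.4 and 27.5 CPM, so all 3 libraries lay below all WT libraries, and the fitted level was 6.20-fold lower (log2 fold change -2.63, SE 0.23). Without the 2 libraries of this comparison that hold *ura4* counts the log2 fold change was -2.55. Whether fewer cells carried the transcript or each cell held less of it cannot be told apart in RNA from whole cultures. In this comparison, 2 of the 7 genes, *pho84* and *pho1*, changed at least 2-fold, beside 23.6% of all genes tested and 21.5% called; since *pho84* was chosen for it, nothing is read from that count.

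*htb1-E75Q* had the same low level of the transporter transcript. Its libraries held 46.4, 17.4 and 30.6 CPM of *pho84*, again all below the lowest WT library. The change was 6.21-fold lower (log2 fold change -2.63, SE 0.33, edgeR adjusted p = 8.01e-05), and it was called with each of the 6 libraries left out and, at a log2 fold change of -2.68, without the WT library that holds *ura4* counts. Against *htb1-E34K*, whose libraries held 91.6, 244 and 149 CPM, *pho84* was 4.95-fold lower in *htb1-E75Q* (SE 0.45 on the log2 scale, edgeR adjusted p = 0.0170). That call was lost without *htb1-E34K* replicate 2 (adjusted p = 0.0695 in edgeR) and without *htb1-E75Q* replicate 3 (0.0782). *pho84* was the only one of the 7 genes called in *htb1-E75Q* against WT, beside 21.5% of all genes, and the only one called against *htb1-E34K*, beside 5.12%.

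In the libraries labelled *set1*Δ the transporter transcript was high, at 429, 490 and 464 CPM. All 3 exceeded every library of the other genotypes, and the change from WT was 2.47-fold higher (SE 0.15 on the log2 scale, edgeR adjusted p = 0.000189), called with each library left out, and 2.39-fold without the WT library that holds *ura4* counts. In *htb1-E112K* it was 387, 330 and 334 CPM, also above all WT libraries. There the change of 1.84-fold (SE 0.17, edgeR adjusted p = 0.00395) passed the p threshold and missed the fold threshold. Without WT replicate 1 the log2 fold change was 1.04 and called (edgeR adjusted p = 0.00512). *htb1-D67N*, at 209, 212 and 194 CPM, overlapped WT, with a 95% interval of the log2 difference from -0.23 to 0.51.

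*htb1-P102L* held 92.5, 119 and 154 CPM of *pho84*, all below the lowest WT library. Its change of 1.57-fold lower (SE 0.19, edgeR adjusted p = 0.0203) was under the fold threshold, as was the 1.45-fold without the libraries that hold *ura4* counts. *htb1-E34K* overlapped WT, with an interval of the log2 difference from -0.96 to 0.48. In order of the genotype means, the libraries labelled *set1*Δ (461 ± 30.8 CPM, SD, n = 3), *htb1-E112K* (351 ± 32) and *htb1-D67N* (205 ± 9.36) came first and did not overlap each other. *htb1-D67N* overlapped WT, WT overlapped *htb1-E34K*, and *htb1-E34K* overlapped *htb1-P102L*. *htb1-E75Q* (31.5 ± 14.5 CPM) and *htb1-G52D* (31.4 ± 8.74 CPM) came last, overlapped each other, and lay below all of the others.

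**Figure D1:**
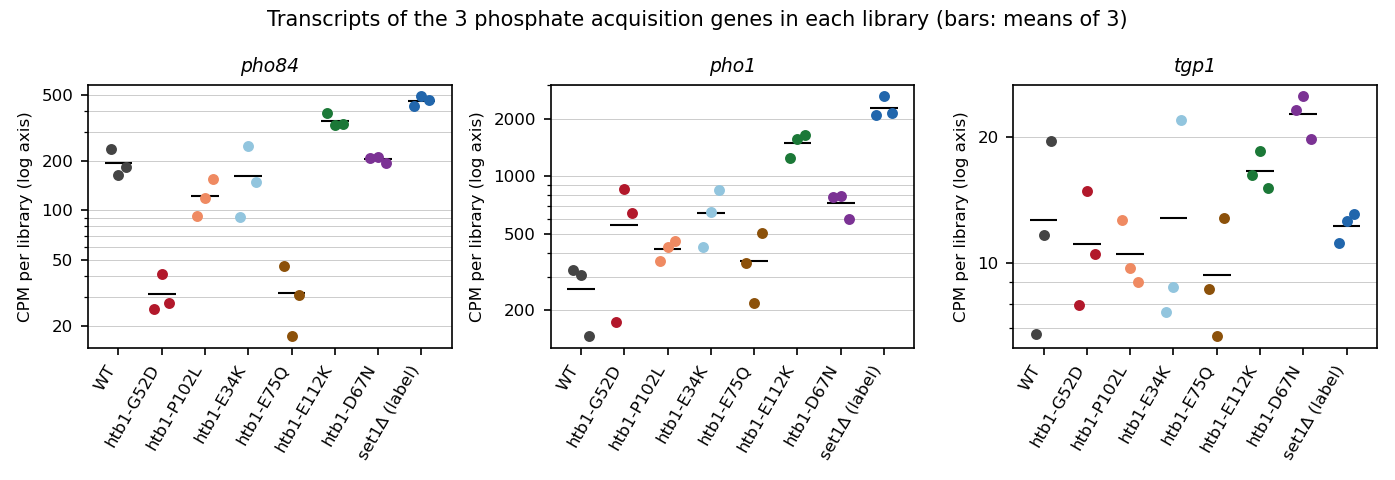
CPM of *pho84*, *pho1* and *tgp1* (log axes) in each of the 24 libraries, in 8 genotypes; points are libraries and bars are means of 3. *pho84* lies lowest in *htb1-G52D* and *htb1-E75Q*, whereas *pho1* has its lowest mean in WT and lies highest in the libraries labelled *set1*Δ.

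*pho1*, the gene of the secreted acid phosphatase, rose in 3 of the 6 tested genotypes and was called lower in none. In WT it was 326, 304 and 147 CPM, the lowest mean of all genotypes (259 ± 97.6 CPM, SD, n = 3). The libraries labelled *set1*Δ held 2090, 2610 and 2150 CPM, 9.23-fold more than WT (SE 0.27 on the log2 scale, edgeR adjusted p = 3.33e-05). *htb1-E112K* held 1240, 1570 and 1640 CPM, 5.88-fold more (SE 0.29, edgeR adjusted p = 0.000221). The ranges of these groups lay above those of all other genotypes and did not overlap each other.

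In *htb1-D67N*, *pho1* was 777, 786 and 602 CPM, 2.92-fold above WT (SE 0.28 on the log2 scale, edgeR adjusted p = 0.00180). All 3 calls held with each library left out. The lowest WT library, replicate 3, is the one that holds *ura4* counts, and without it the changes were smaller, 7.56-fold in the libraries labelled *set1*Δ, 4.78-fold in *htb1-E112K* and 2.39-fold in *htb1-D67N*, and were all called. *pho1* was the only gene of the 7 called in *htb1-E112K* (10.3% of all genes called) and in *htb1-D67N* (15.3%), while *pho1* and *pho84* were called in the libraries labelled *set1*Δ (6.46%).

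*htb1-E34K* held 428, 655 and 849 CPM of *pho1*, all above WT, and 2.55-fold more on the fit. With an edgeR adjusted p of 0.132 it was not called. None of the 7 genes was called in this mutant, beside 0.103% of all genes; at an unadjusted p under 0.05 edgeR gave 1 of the 7, and DESeq2 called 1, both *pho1*. DESeq2 gave an adjusted p of 0.0126, edgeR with all 24 libraries in one fit 0.0416, and edgeR without *htb1-E34K* replicate 1 gave 0.0435. The call thus depended on the test and on 1 library. Without the WT library that holds *ura4* counts the change was 2.09-fold (edgeR adjusted p = 0.356).

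*htb1-P102L* held 360, 430 and 461 CPM, also without overlap with WT, and the change was 1.64-fold (SE 0.25, edgeR adjusted p = 0.0430), under the fold threshold, and 1.44-fold without the libraries that hold *ura4* counts. *htb1-E75Q* held 353, 218 and 508 CPM and overlapped WT, with an interval of the log2 difference from -0.29 to 1.24. In *htb1-G52D*, *pho1* was 173, 860 and 644 CPM, and the fitted level was 2.16-fold higher (SE 0.50 on the log2 scale). Its replicate 1, the lowest library, is the one that holds *ura4* counts. The highest library was 4.97 times the lowest, the widest spread of any of the 7 genes within a genotype. Without the libraries that hold *ura4* counts the log2 fold change of *pho1* in *htb1-G52D* was 1.26, against 1.11 with them.

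The direct comparisons with *htb1-E34K* bear on *pho1* without the WT libraries. *pho1* was 3.56-fold higher in the libraries labelled *set1*Δ (SE 0.28, edgeR adjusted p = 0.0260) and 2.33-fold higher in *htb1-E112K* (SE 0.32, edgeR adjusted p = 0.0380). It was the only one of the 7 called in either, beside 1.53% and 6.43% of all genes. The first call was lost without any 1 library labelled *set1*Δ (edgeR adjusted p from 0.133 to 0.152), and the second was held in 1 of the 6 fits that left out a library, without *htb1-E34K* replicate 3. *pho84* was 2.85-fold and 2.20-fold higher in these comparisons, with edgeR adjusted p-values of 0.0511 and 0.0584. DESeq2 called *pho84* in both (adjusted p = 0.000295 and 0.00921). So did edgeR without *htb1-E34K* replicate 2 (adjusted p = 0.0145 and 0.0138) and, for the libraries labelled *set1*Δ, without *htb1-E34K* replicate 1 (0.0107). In *htb1-D67N* none of the 7 was called against *htb1-E34K*, beside 9.42% of all genes, 1 had an unadjusted edgeR p under 0.05, and DESeq2 called 0.

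The ratio of *pho1* to *pho84* was higher in every library of the other genotypes than in the WT libraries. This is a description, since the WT levels of *pho84* were part of the choice of the genes. How often the ratios of other gene pairs separate in the same way was not tested. *pho84*, *prt* and *pho1* follow each other on the same strand of chromosome II. The log2 ratio of *pho1* to *pho84* was 0.46, 0.88 and -0.32 in the WT libraries, so the 2 genes had about equal CPM. In the 6 tested genotypes every library lay above the highest WT library, from 1.43 upward. The ratio averaged 2.30 ± 0.10 (SD, n = 3) in the libraries labelled *set1*Δ, 2.08 ± 0.35 in *htb1-E112K*, 1.81 ± 0.15 in *htb1-D67N* and 1.80 ± 0.20 in *htb1-P102L*. In *htb1-E34K* it was 2.23, 1.43 and 2.51. It was higher in *htb1-E75Q*, at 2.93, 3.65 and 4.05, while *pho1* alone overlapped WT there. In *htb1-G52D* it was 2.77, 4.38 and 4.55, which follows from the low *pho84* for which the genes were chosen and is only described. CPM does not allow for length. Per length, *htb1-E75Q* averaged 148 ± 21.3 FPKM of *pho1* and 17.3 ± 7.67 FPKM of *pho84* (SD, n = 3). An exact two-sided permutation test against WT gave p = 0.1 in each of the 6 tested genotypes (adjusted p = 0.1). That is the smallest value that 3 against 3 libraries can give, and libraries that do not overlap always give it. The test could thus not pass the p threshold used for calls, and nothing is read from it. This ratio does not depend on how libraries are scaled, but it does hold whatever *prt* reads the *pho1* counts hold.

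**Figure D2:**
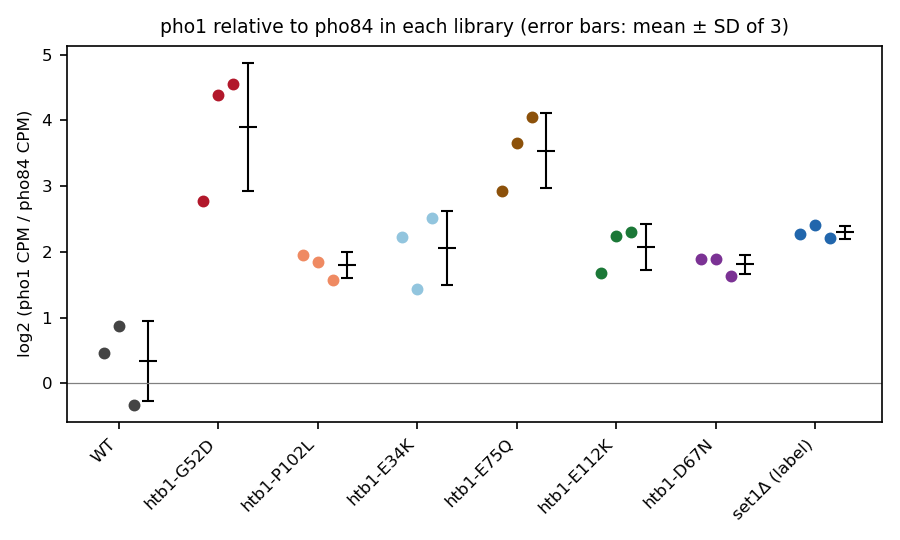
Log2 ratio of *pho1* CPM to *pho84* CPM in each of the 24 libraries; black bars are the mean and SD of 3 libraries. WT lies between -0.32 and 0.88, and *htb1-G52D* and *htb1-E75Q* reach the highest values, 4.55 and 4.05.

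*tgp1*, the glycerophosphocholine transporter gene and the third of the genes silenced by an upstream RNA, was called in no comparison. It was 6.77, 11.7 and 19.6 CPM in WT, a spread of 2.90-fold, with the highest value in the replicate that holds *ura4* counts. *htb1-D67N* held 23.2, 25.0 and 19.8 CPM, all above that library. The change was 1.87-fold (SE 0.30, edgeR adjusted p = 0.0353), under the fold threshold. Without WT replicate 3 it was 2.57-fold and called (edgeR adjusted p = 0.00164).

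Against *htb1-E34K*, *tgp1* in *htb1-D67N* was 1.84-fold higher with an edgeR adjusted p of 0.136, and it was called without *htb1-E34K* replicate 3 (0.00519). Without that library it was also called in *htb1-E112K* (log2 fold change 1.04, edgeR adjusted p = 0.0227), against 0.39 with it. The libraries labelled *set1*Δ, where *pho1* and *pho84* were highest, held 11.2, 12.6 and 13.1 CPM of *tgp1*, within the WT range. The interval of that log2 difference was -0.60 to 0.64, and the difference was 0.48 without the WT library that holds *ura4* counts (edgeR adjusted p = 0.0727). The means of the other 5 mutants lay between 9.39 and 16.6 CPM and each overlapped WT. In *htb1-G52D*, *tgp1* had a log2 fold change of -0.20 on the fit with all libraries and 0.45 without those that hold *ura4* counts. Per length, *tgp1* was low beside the other targets: in WT its FPKM was 6.15 ± 3.84 (SD, n = 3), that of *pho84* 71.3 ± 13.7 and that of *pho1*, over its longer counted length, 71.4 ± 21.1.

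*pho7*, which encodes the activator of the 3 genes above, was lower in *htb1-P102L* alone among the tested genotypes. It was 17.9, 11.8 and 24.9 CPM in WT and 7.45, 5.90 and 4.86 CPM in *htb1-P102L*, with no overlap. The change was 2.99-fold lower (log2 fold change -1.58, SE 0.26, edgeR adjusted p = 0.000751), called with each library left out and, at a log2 fold change of -1.45, without those that hold *ura4* counts. *pho7* was the only one of the 7 genes called in this mutant, beside 13.4% of all genes. Against *htb1-E34K*, at 20.3, 12.5 and 11.2 CPM, it was 2.40-fold lower (SE 0.28, edgeR adjusted p = 0.0218), again the only call among the 7, beside 5.98% of all genes. That call was lost in 4 of the 6 fits that left out a library, without *htb1-E34K* replicate 1 (1.95-fold) and without each *htb1-P102L* replicate (edgeR adjusted p from 0.0650 to 0.107). None of the targets was called in *htb1-P102L* against WT or against *htb1-E34K*.

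Elsewhere *pho7* varied as much within a genotype as between genotypes. Its highest library was 3.18 times its lowest in *htb1-E75Q*, 2.23 times in *htb1-D67N* and 2.13 times in *htb1-E112K*. In *htb1-G52D* it was 14.6, 10.9 and 11.2 CPM, 1.49-fold lower on the fit and 1.35-fold lower without the libraries that hold *ura4* counts. In order of the means, neighbouring genotypes from the libraries labelled *set1*Δ (18.5 ± 2.47 CPM) down to *htb1-G52D* (12.2 ± 2.04) overlapped each other. Only *htb1-P102L* (6.07 ± 1.31) lay apart.

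*csk1*, the kinase gene, was called in no comparison. Its genotype means lay between 3.51 and 8.25 CPM. The libraries of *htb1-G52D*, at 3.0, 3.53 and 4.01 CPM, were the lowest, below the WT libraries at 7.54, 5.86 and 5.41 CPM, and 1.78-fold lower on the fit (SE 0.23 on the log2 scale), or 1.77-fold without the libraries that hold *ura4* counts. The highest mean, in the libraries labelled *set1*Δ, was 1.37-fold above WT (edgeR adjusted p = 0.1). For the other 5 mutants the intervals of the log2 difference from WT lay between -0.82 and 0.72.

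*asp1*, whose kinase makes inositol pyrophosphates, was the lowest of the 7 per length, with 1.04 ± 0.50 FPKM in WT (SD, n = 3). It was 3.27, 3.31 and 5.77 CPM in WT and 8.06, 9.73 and 4.55 CPM in *htb1-E75Q*. The groups overlapped through 1 library on each side, and the change of 1.79-fold was not called (edgeR adjusted p = 0.0567). Without WT replicate 3 it was 2.25-fold higher and called (edgeR adjusted p = 0.0236), and without *htb1-E75Q* replicate 3 it was 2.16-fold higher and called (0.0141). Against *htb1-E34K* it was 1.67-fold higher (edgeR adjusted p = 0.293), and called without *htb1-E34K* replicate 1 (2.20-fold, 0.0419).

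In *htb1-G52D*, *asp1* was 6.81, 6.09 and 6.14 CPM, above all WT libraries, and 1.54-fold higher on the fit, or 1.86-fold without the libraries that hold *ura4* counts. In the libraries labelled *set1*Δ it was 3.23, 3.21 and 2.56 CPM, just below the lowest WT library, and 1.32-fold lower (edgeR adjusted p = 0.263), or 1.05-fold lower without the WT library that holds *ura4* counts. *aps1*, whose hydrolase acts on inositol pyrophosphates and diadenosine polyphosphates, varied least. Its genotype means lay between 14.9 CPM in *htb1-D67N* and 22.4 CPM in *htb1-G52D*, and the highest library of a genotype was at most 1.39 times its lowest. It was called in no comparison. The intervals of its log2 difference from WT lay between -0.53 and 0.56 in the 6 tested genotypes, so that a 2-fold change lay outside each of them. In *htb1-G52D* it was 20.3, 23.1 and 23.9 CPM, 1.29-fold above WT with no overlap, and 1.30-fold above it without the libraries that hold *ura4* counts.

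**Figure D3:**
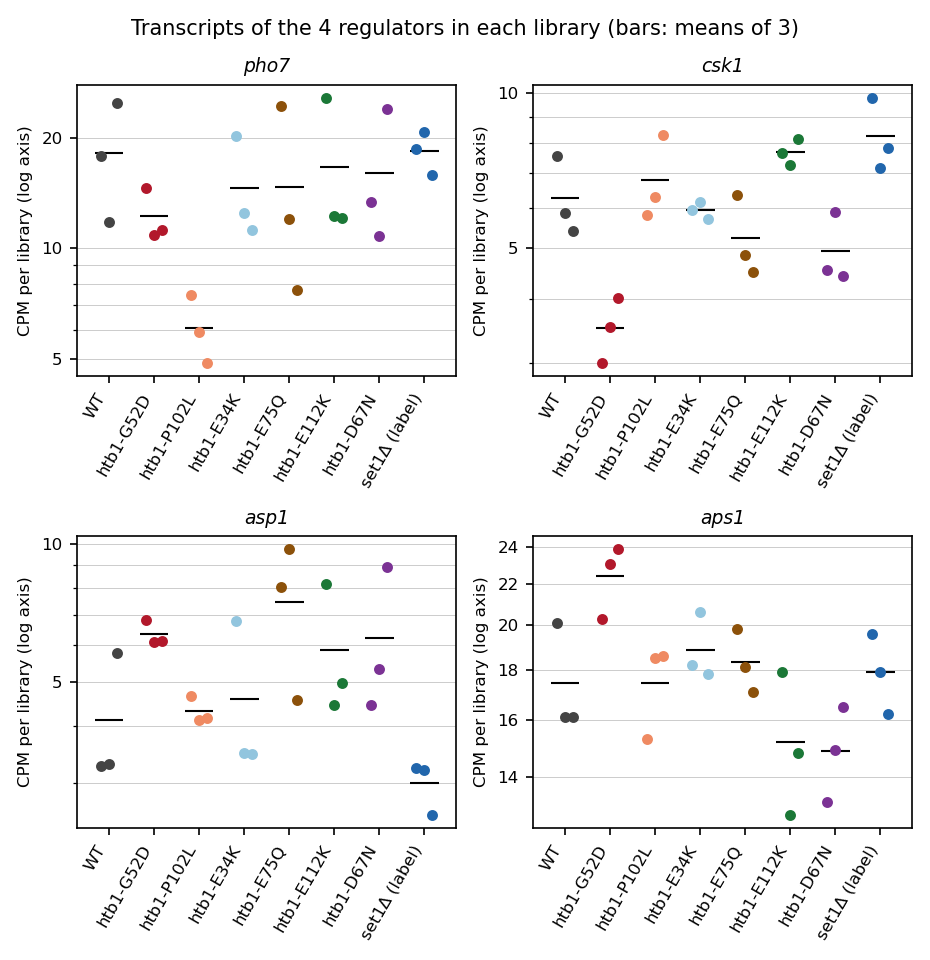
CPM of the regulators *pho7*, *csk1*, *asp1* and *aps1* (log axes) in each of the 24 libraries; points are libraries and bars are means of 3. *pho7* is lowest in *htb1-P102L* (4.86 to 7.45 CPM), and the libraries of a genotype spread widely for *pho7* and *asp1* and little for *aps1*.

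Counted over the 6 tested genotypes, the 7 genes gave 42 comparisons with WT, of which 4 were called higher, 2 lower and 36 not. Over all genes the share called in these comparisons ran from 0.103% in *htb1-E34K* through 6.46%, 10.3%, 13.4% and 15.3% to 21.5% in *htb1-E75Q*, so the number of calls is not read as particular to the 7 genes. The calls were *pho1* in 3 genotypes, *pho84* in 2 in opposite directions and *pho7* in 1. The 5 comparisons with *htb1-E34K* gave 2 higher, 2 lower and 31 not called of 35. Genes whose libraries did not overlap those of WT were common in the series. Of the 7 genes, 2 lay above and 2 below WT in *htb1-G52D* (55.0% of all genes did not overlap), 1 above and 2 below in *htb1-P102L* (51.3%), and 1 below in *htb1-E75Q* (50.5%). In *htb1-D67N* 2 lay above (49.2%), in *htb1-E112K* 2 above (44.6%), in the libraries labelled *set1*Δ 2 above and 1 below (44.2%), and in *htb1-E34K* 1 above (25.3%). These shares of the 7 are under those of all genes in each genotype other than *htb1-G52D*, from which nothing is read. The median log2 fold change of the 7 genes from WT ran from -0.27 (*htb1-E75Q*) to 0.41 (*htb1-E112K*), beside 0.01 to 0.09 over all genes tested. Scaling by total counts in place of TMM raised the median gene by 0.21 to 0.67 on the log2 scale in the 7 comparisons with WT. Relative to that median gene, *pho84* was at -2.79 in *htb1-E75Q* and -2.78 in *htb1-G52D*, *pho1* at 3.25 in the libraries labelled *set1*Δ and *pho7* at -1.67 in *htb1-P102L*.

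**Figure D4:**
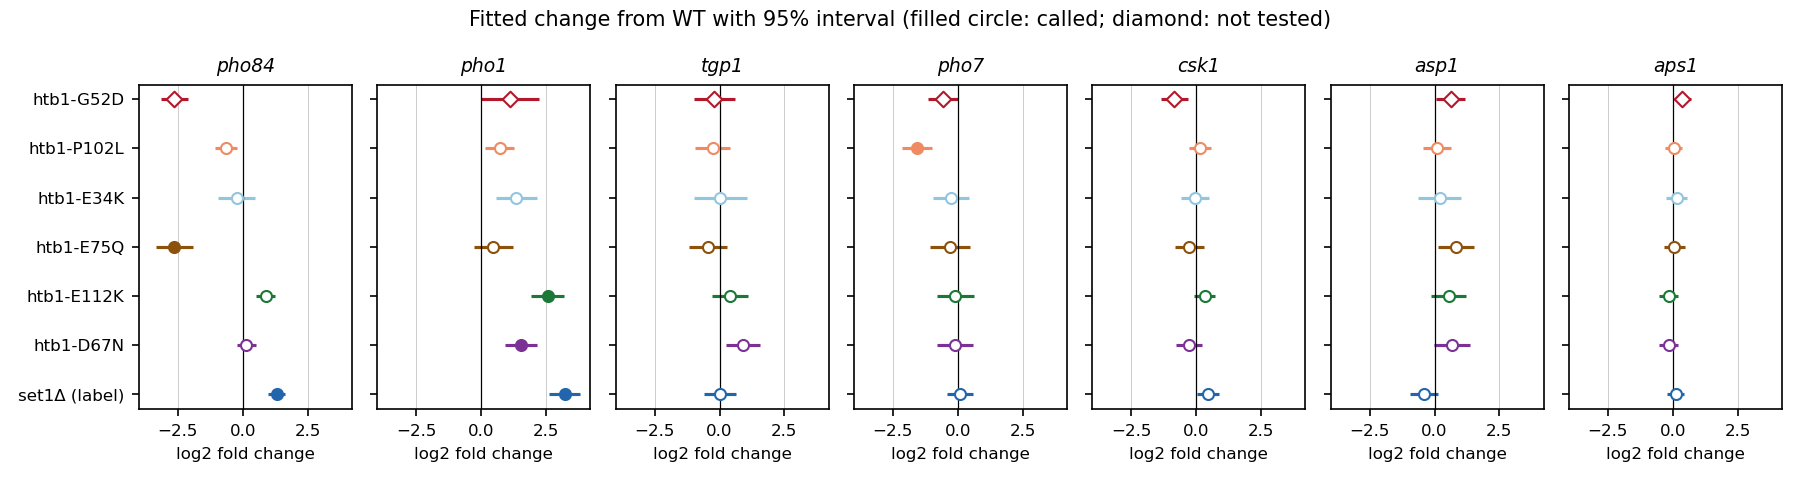
Fitted log2 fold change from WT of the 7 genes in the 7 other genotypes, with 95% intervals; filled circles were called, open circles were not, and diamonds mark *htb1-G52D*, which was not tested. *pho1* lies to the right of 0 in all 7 genotypes, *pho84* lies far to the left in *htb1-G52D* and *htb1-E75Q*, and *aps1* stays close to 0.

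Of the 4 genes that flank the 3 targets, *fub2* and SPBC1271.08c were called higher in most genotypes. *fub2*, annotated as a proteasome regulator of the PI31 family and the next gene after *pho1* on the same strand, was 3.33, 0.811 and 1.02 CPM in WT. It was called higher in 6 of the 7 other genotypes. In *htb1-P102L* it held 56.3, 45.4 and 70.2 CPM, 34-fold more (SE 0.38, edgeR adjusted p = 3.02e-06). In the libraries labelled *set1*Δ it rose 17.2-fold (SE 0.36). These sizes rest on few WT counts, 56, 13 and 20. Without WT replicate 1, the highest, the log2 change was 5.96 in *htb1-P102L*, against 5.09 with it, and 4.97 in the libraries labelled *set1*Δ, against 4.10, and both stayed called with each library left out. Without the libraries that hold *ura4* counts it was 27.9-fold and 14.0-fold higher. In *htb1-E34K*, at 11.3, 10.7 and 2.03 CPM, it was 4.79-fold higher and not called (edgeR adjusted p = 0.172), and it was called without replicate 3 of that mutant (0.0407). By its mean, *pho1* was lower in *htb1-P102L* than in 5 other genotypes.

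SPBC8E4.02c, an identifier that ASM294v3 lists as a synonym of *prt2*, was called higher in *htb1-D67N* alone. The feature counted under it was 1618 bases long, less than the 89.0% of the 2100 bases of *pho84* that the annotated *prt2* overlaps, so it is not *prt2* as annotated, and its values are given under the identifier. It was 8.25, 11.2 and 16.7 CPM in WT and 42.5, 43.6 and 29.0 CPM in *htb1-D67N*, 3.32-fold more (SE 0.25, edgeR adjusted p = 0.000437). The *pho84* transcript did not pass the test in that mutant. Without WT replicate 3 it was also called in *htb1-E112K* (2.03-fold) and in the libraries labelled *set1*Δ (2.28-fold), where with all WT libraries it was 1.64-fold and 1.84-fold higher, with edgeR adjusted p-values of 0.0464 and 0.0114. In *htb1-G52D* and *htb1-E75Q*, where *pho84* was lowest, SPBC8E4.02c overlapped WT, with intervals of the log2 difference from -0.54 to 0.54 and from -0.52 to 0.60.

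Beside *tgp1*, the upstream gene SPBC1271.08c, annotated as an uncharacterized protein on the opposite strand, was called higher in all 7 other genotypes. It was 1.84, 1.93 and 1.43 CPM in WT and between 2.29 and 47.3 CPM in the 21 other libraries. Its counted length was 2100 bases against 1496 annotated ones, a ratio of 1.40 that is also outside the range above, so its counts may hold reads from beyond the annotated gene. The changes ran from 4.64-fold in *htb1-E112K* (SE 0.22, edgeR adjusted p = 9.64e-05) to 19.7-fold in *htb1-E75Q* (SE 0.39, edgeR adjusted p = 6.49e-06). In *htb1-P102L* the library that holds *ura4* counts had 2.29 CPM, and the others 15 and 12.8 CPM. The change there was 5.98-fold with all libraries and 7.43-fold without those that hold *ura4* counts. In *htb1-E34K* the call was lost without WT replicate 2 (edgeR adjusted p = 0.0532). The downstream gene SPBC1271.10c, annotated as a transporter, was called in none of the 7. In the libraries labelled *set1*Δ it was 13.5, 12.1 and 13.1 CPM, below all WT libraries at 14.6, 19 and 31.5 CPM, and 1.61-fold lower (edgeR adjusted p = 0.0451), or 1.25-fold without the WT library that holds *ura4* counts.

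**Figure D5:**
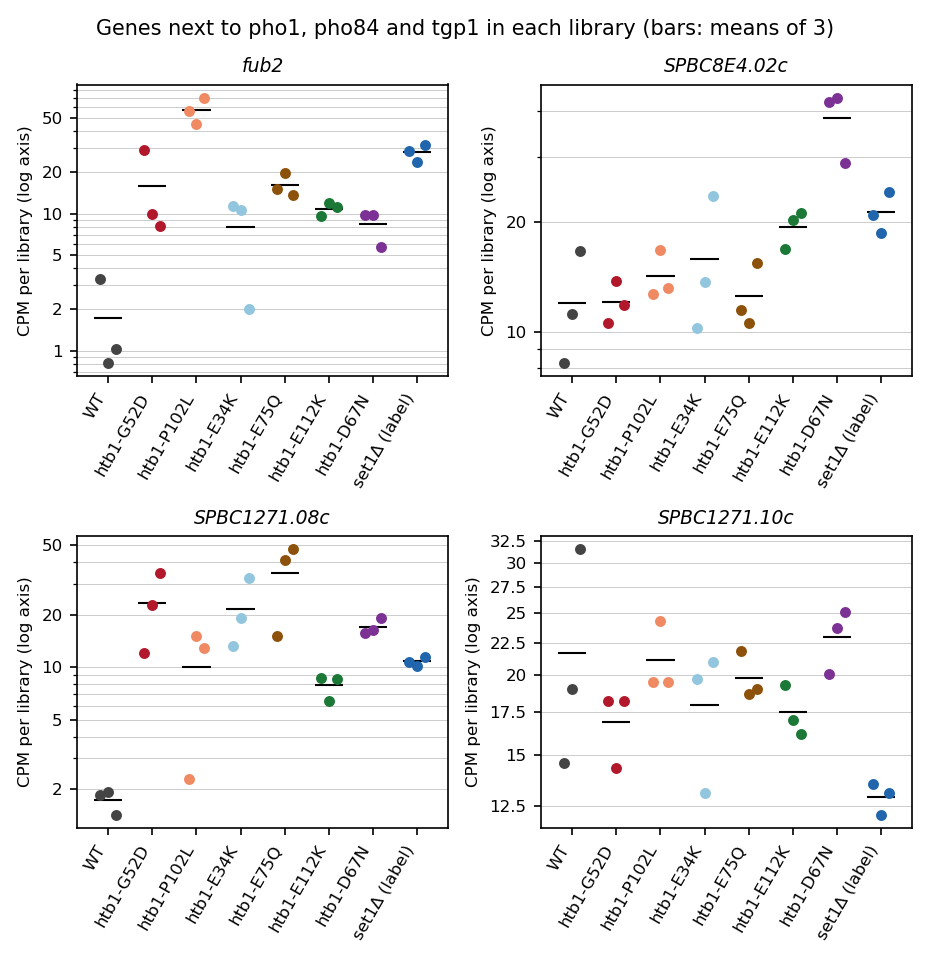
CPM of the genes next to *pho1* (*fub2*), *pho84* (SPBC8E4.02c) and *tgp1* (SPBC1271.08c and SPBC1271.10c) in each of the 24 libraries, on log axes; bars are means of 3. *fub2* lies highest in *htb1-P102L* (45.4 to 70.2 CPM), SPBC8E4.02c in *htb1-D67N*, and SPBC1271.08c lies above all WT libraries in all 7 other genotypes.

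Of 41 further genes of phosphate metabolism and of the control of these genes, 13 were called in at least 1 genotype, SPBC1271.08c among them. In *htb1-E34K* 1 of the 41 was called, beside 0.103% of all genes. It was 9 in *htb1-G52D* (21.5% of all genes) and in *htb1-D67N* (15.3%), 7 in *htb1-E75Q* (21.5%), and 5 in *htb1-P102L* (13.4%), *htb1-E112K* (10.3%) and the libraries labelled *set1*Δ (6.46%). These counts are not read as particular to the 41 genes. Among 8 transporters and phosphatases, *pho842*, annotated as another inorganic phosphate transporter, was 81.2 to 83.7 CPM in WT and 205 to 300 CPM in the libraries labelled *set1*Δ, 3.06-fold more (SE 0.14, edgeR adjusted p = 3.84e-05). In *htb1-E112K* it was 1.90-fold higher (edgeR adjusted p = 0.00321), under the fold threshold, and in the mutants with little *pho84* the intervals of its log2 difference from WT included 0. Stretches of 50 bases that occur again elsewhere in the genome make up 4.73% of *pho84*, so few of its reads could be shared with a similar gene.

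The predicted phosphatase gene SPBPB2B2.06c was called higher in the same 3 genotypes as *pho1*. Its mean was 1.63 CPM in WT, 63.2 CPM in *htb1-E112K* (39.8-fold, SE 0.28, edgeR adjusted p = 5.04e-06), 22 CPM in *htb1-D67N* (14.2-fold) and 8.04 CPM in the libraries labelled *set1*Δ (5.20-fold). It was called lower in *htb1-G52D* (3.61-fold, SE 0.50), at a low mean of 0.449 CPM. *htb1-E75Q* averaged 1.76 CPM, from 0.482 to 4.30 CPM, and was not called. SPAC1039.02, annotated with the same product, was lower in most genotypes. It was 175 to 284 CPM in WT and was called lower in 6 of the 7, from 2.56-fold in the libraries labelled *set1*Δ to 9.97-fold in *htb1-D67N* (SE 0.21, edgeR adjusted p = 1.65e-06). In *htb1-E34K* it was 2.93-fold lower and not called (edgeR adjusted p = 0.151).

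*pho4*, the thiamine-repressible acid phosphatase gene, was called lower in *htb1-G52D* (4.21-fold, SE 0.21, edgeR adjusted p = 0.000107), in *htb1-E75Q* (3.31-fold) and in *htb1-D67N* (2.07-fold). Of 9 enzymes of inositol pyrophosphate and polyphosphate metabolism only *plc1*, the phosphoinositide phospholipase C gene, was called in any genotype. It was 1.07 to 1.87 CPM in WT and was called higher in 5 mutants, from 2.26-fold in *htb1-E112K* to 4.98-fold in *htb1-D67N* and *htb1-E75Q*. In the libraries labelled *set1*Δ it was 1.40-fold lower and not called (edgeR adjusted p = 0.531).

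Of 17 factors of RNA 3′ end processing and elimination, 0 to 4 were called per genotype, from 0 in *htb1-E34K* (0.103% of all genes) to 3 in *htb1-G52D* (21.5%) and 4 in *htb1-D67N* (15.3%). *rrp6*, a nuclease subunit of the exosome, was called higher in 5 mutants, from 3.0-fold in *htb1-P102L* to 4.42-fold in *htb1-E75Q*, at low levels of 0.356 to 0.748 CPM in WT. *erh1*, whose product works with the RNA elimination factor Mmi1, was called lower in *htb1-G52D* (2.30-fold), *htb1-P102L* (2.08-fold) and *htb1-D67N* (3.27-fold). Its levels were also low, with means of 2.47 CPM in WT and 1.07, 1.19 and 0.723 CPM in these mutants. *seb1*, a poly(A) site selection factor, was called lower in *htb1-G52D* (2.46-fold, edgeR adjusted p = 0.00250) and *htb1-E75Q* (2.04-fold, 0.0260). In the same mutants *mcs6*, the kinase of TFIIH, was the only gene of 7 in the kinase list to be called, 2.28-fold higher in *htb1-G52D* (edgeR adjusted p = 0.000163) and 2.20-fold higher in *htb1-E75Q* (0.000503). For these 41 genes the median log2 fold change from WT lay between -0.06 and 0.20, beside 0.01 to 0.09 over all genes.

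The genes whose pattern over the 24 libraries was most like each target were found by Pearson's r of log2(CPM + 0.5) among 4707 other genes with a mean of at least 1 CPM. Libraries of a genotype share their genotype label, so the points are not independent. Within WT, *htb1-G52D* and *htb1-P102L* the *ura4* and *mat1-Mc* counts given above differ between libraries, so these may not share 1 strain. For *pho84* these were SPBPB8B6.05c, an L-asparaginase gene (r = 0.91), SPBC17D1.05, annotated as rhs1 (0.90), and *rar1*, a methionine-tRNA ligase gene (0.89). For *pho1* they were SPAC1399.01c, a transporter gene (0.87), *ret3*, a coatomer subunit gene (0.80), and SPCC126.08c, a lectin family gene (0.80). For *tgp1* they were SPBC8E4.02c (0.84), *anc1*, the ATP:ADP antiporter gene (0.82), and *cdc48* (0.80).

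None of the 6 other genes was among the 3 nearest to any target. Between the targets r was 0.64 for *pho1* and *pho84*, 0.41 for *pho84* and *tgp1* and 0.38 for *pho1* and *tgp1*. *pho7* had an r of 0.28 with *pho84*, 0.11 with *pho1* and 0.09 with *tgp1*. Among the regulators *csk1* was nearest to *pho84* (r = 0.74), and *asp1* was opposed to it (-0.56). By their means, *pho84* and *csk1* were both lowest in *htb1-G52D*, the genotype behind the choice, so these r values are only described.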

How the data were processed

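Poly(A) RNA of 24 *S. pombe* cultures, 3 per genotype, was measured; groups and replicate numbers come from the sample titles. Per the submitters' processing notes and the study's methods, the authors filtered reads with fastp, removed rRNA reads with Bowtie2, aligned the rest with HISAT2 to an Ensembl release, and quantified with StringTie; RSEM and DESeq2 are also named. The authors deposited raw counts per gene and FPKM per gene and library; their own fold changes, p-values and group means were not used. The program that made the counts, its strand setting and versions are not given in the sources used here.

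The 6 libraries of each comparison were fitted alone with R 4.3.3 and the quasi-likelihood test (glmQLFTest) of edgeR 4.0.16, after its filterByExpr and TMM steps, with Benjamini-Hochberg adjustment over all tested genes. Genes were called at an adjusted p under 0.05 and a log2 change of at least 1, as in the study. FPKM served only to compare levels between genes, and for used lengths. The ASM294v3 annotation gave names, lengths, overlaps and neighbours; the authors' build may differ, so no coordinates or sequences are given, and a planned promoter motif search was not run. Named genes are the 7 genes, the nearest annotated genes beside the targets, at most 10 called genes of the 41 listed ones with the largest changes, the 3 most alike genes per target, and the strain markers. The members, lists and tests were chosen with earlier results of these data known. Scripts were tested on simulated data. Depth was 18935513 to 28181070 counts per library.

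Alternatives were total-count scaling, DESeq2 1.42.0, a single fit of all 24 libraries, the replicate number as a block, a minimum of 10 counts per library or no filter, each library left out, and leaving out libraries with over 100 *ura4* counts. Deviations of same-numbered libraries correlated over 0.1 in every pair only for *htb1-D67N* against WT (0.18, 0.21 and 0.36). Pairing by replicate number rests on that check alone. The main fits, that of *htb1-D67N* against WT included, held no block, which was an alternative in every comparison. In *htb1-D67N* against WT the block changed no call of the 7 genes. Tables and plots were made in Python 3.11.15 (pandas 2.3.3, matplotlib 3.10.9, NumPy 2.4.6), and permutations with SciPy 1.17.1.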

Additional observations from a re-analysis of the deposited data

How the results depend on the processing

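Over the 6 comparisons with WT and the 5 with *htb1-E34K*, 973 refits of single values of the 7 genes kept their call or the lack of one in 928 cases, lost a call in 15 and gained one in 30; none of the called values reversed, and 71 uncalled ones changed sign. With total-count scaling, which raised the median gene against WT, the number of the 7 genes called was 2 (not 1) in *htb1-P102L*, with *pho1* higher beside *pho7* lower, 1 (not 0) in *htb1-E34K*, 3 (not 1) in *htb1-E75Q*, with *pho1* and *asp1* higher beside *pho84* lower, and 2 (not 1) in *htb1-E112K* and *htb1-D67N*; against *htb1-E34K* it was 2 (not 1) in *htb1-E112K* and the libraries labelled *set1*Δ. DESeq2 and all 24 libraries in one fit gave 1 for *htb1-E34K* against WT, and 2 for *htb1-E112K* and the libraries labelled *set1*Δ against *htb1-E34K*; so did the replicate block for the latter 2 comparisons, and it moved no other count. At least 10 counts in every library gave 2 for the libraries labelled *set1*Δ against *htb1-E34K*. Without the libraries that hold *ura4* counts the number was 2 in *htb1-E75Q* and *htb1-D67N* against WT and 0 in *htb1-P102L* against *htb1-E34K*. With each library left out it ranged from 1 to 2 in *htb1-E75Q*, *htb1-E112K* and *htb1-D67N*, was 2 in the libraries labelled *set1*Δ and 1 in *htb1-P102L*, and ranged from 0 to 1 in *htb1-E34K*. Against *htb1-E34K* it ranged from 0 to 1 in *htb1-P102L* and *htb1-D67N*, and from 0 to 2 in *htb1-E75Q*, *htb1-E112K* and the libraries labelled *set1*Δ. Where no cause is named, it was not tested. SPBPB2B2.06c in *htb1-E75Q*, not called at a log2 change of 0.10, was called lower at -1.75 without replicate 1, the lowest of the fits without 1 library, of which the highest was 0.60. *asp1*, at 53 to 283 counts per library, and *csk1*, at 65 to 238, rest on the fewest counts of the 7.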
